A study of Mus musculus with 4 samples.

Results

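The 10 amino acid transporters Slc7a11, Slc7a5, Slc3a2, Slc7a7, Slc7a1, Slc7a3, Slc1a4, Slc1a5, Slc38a2 and Slc6a9 were examined in mouse lung endothelial cells (ECs) with and without induced deletion of the RNA-editing enzyme ADAR1. They were taken by symbol from a table of 24421 genes, and from 1503 of the 1205261 candidate editing sites of the same libraries. The 10 had been chosen with earlier results of these data known. By read depth over exons, in a fit added after these depths had been seen, 7 of the 10 could be tested, and 6 of these were higher in the induced cells (limma), against 9.7% of all genes tested. The planned depth fit could test only Slc38a2 and did not call it, and gene counts called 2 of 9 higher with edgeR, against 4.39% of all genes, and 0 with DESeq2. In the added fit the median depth of the cystine transporter Slc7a11 was 8.66 times as high in induced as in control cells of the first mouse and 10.3 times as high in those of the second, while that of the glutamine transporter Slc38a2 was 1.06 and 0.881 times as high. In gene counts Slc7a11 was at a log2 fold change of -0.55 and not called (edgeR), and when paired by mouse was called lower by edgeR but not by DESeq2. Only 0.823% to 0.858% of a library's total fell on genes, and a gene count may hold reads from the opposite strand.

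ECs came from 2 male inducible ADAR1 KO (i-KO) mice of independent litters, labelled C57/BL6 and 2 weeks of age. Cells had been selected with CD31 and then ICAM-2 beads and grown in culture. One culture of each mouse was treated with 4-OH-tamoxifen (TM), which induces deletion of the floxed exons 12 to 15 of ADAR1, and one was not induced (CON). All 4 cultures therefore carry the floxed allele and the inducible Cre, whose driver is not given in the sources used here for these mice, and no TM culture without Cre is among these samples, so that deletion and tamoxifen cannot be told apart. The mice are called EC1 and EC2, so that n = 2 per group, paired by mouse. The p-values of the fits rest on these cultures alone, with the spread of each gene drawn towards that of all genes tested. They therefore measure neither the spread of a gene between these 2 mice nor that between mice in general. Because RNA was taken from whole cultures, fewer cells of a type and less RNA per cell cannot be told apart.

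Amino acid transporters of the plasma membrane fall into families that differ in what they carry and in what drives them. In the heteromeric family a light chain moves the amino acid, and a glycoprotein heavy chain, mostly SLC3A2, holds it at the cell surface. SLC7A11 exchanges extracellular cystine for intracellular glutamate and so feeds glutathione synthesis, SLC7A5 exchanges large neutral amino acids such as leucine, and both are known as targets of the transcription factor ATF4, which is made when the kinases of eIF2α are active.

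Promoter sequence was examined because ATF4 acts through a short element, TGATGNAA, at its targets, and NRF2, the other textbook regulator of SLC7A11, through TGACNNNGC. Both were searched on both strands in 300 bases around each start site of RefSeq (GRCm38.p6), from 250 bases before it to 50 after it. The set of promoters used here held an entry for 7 of the 10 genes. Of 32851 promoters, 3.97% held TGATGNAA, and since some genes have several promoters, 4.51% of 27025 genes did. Of the 7 transporters 3 did, Slc7a11, Slc1a4 and Slc7a7. Slc7a11 held it on both strands, 66 and 47 bases before its start, and Slc1a4 held it on the opposite strand close to the start. Slc7a7, the one of the 3 whose depth was not tested, held 2 in 1 window of several. Of these, TGATGCAA also lies in an overlapping window of Slc7a7, 243 bases before the start there. The stretches are shown from 30 bases before the first match, 5′ to 3′ on the minus strand, with the matches in capitals (TTGCATCA is TGATGCAA read on the other strand).
Slc7a11, chr3:50443623-50443709: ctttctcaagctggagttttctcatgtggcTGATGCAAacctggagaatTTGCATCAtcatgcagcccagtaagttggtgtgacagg
Slc1a4, chr11:20332710-20332747: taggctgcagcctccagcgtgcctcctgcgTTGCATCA
Slc7a7, chr14:54417938-54418115: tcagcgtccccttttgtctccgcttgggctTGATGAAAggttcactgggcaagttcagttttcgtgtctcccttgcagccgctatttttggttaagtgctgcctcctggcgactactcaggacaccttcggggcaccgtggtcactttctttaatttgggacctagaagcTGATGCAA
TGACNNNGC was found in 12.4% of promoters, in 13.99% of genes and in Slc7a1, Slc38a2 and Slc6a9. A match of letters shows no binding, and Slc7a5, Slc7a3 and Slc1a5 were not searched.

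Deletion was checked first at Adar (chr3:89715022-89753446). At exons 12 to 14 of Adar, the read depth, scaled to a library total of 100000000, was 109 in EC1 CON (3 sites) and 118 in EC2 CON (1 site), and 31.6 in EC2 TM (2 sites), while EC1 TM listed no site there. At exon 15, the last of the floxed exons, it was higher in TM, 320 and 403 against 74.4 and 109 in CON, and whether the sites listed in exon 15 lie in the deleted part was not tested. The paper reports efficient deletion of the floxed exons from its own alignment of the RNA reads. By Western blot it found almost no ADAR1 protein left in cultured i-KO ECs after TM. Gene counts of Adar, 9 and 16 in CON and 47 and 71 in TM, were higher over the whole gene (log2 fold change 1.87, edgeR's quasi-likelihood test, Benjamini-Hochberg adjusted p = 0.00609), and the gene shares an exon with Chrnb2 on the opposite strand.

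The cell type was checked against marker lists, as the median exonic depth, scaled likewise and summed over each list. All 10 endothelial markers were listed in every library, with sums of 18024 in CON and 15620 in TM of EC1 and of 22578 in CON and 17141 in TM of EC2, led by the junction protein Cdh5 or by Emcn. In the depth at own sites described below, 4 of the 9 endothelial markers tested, Pecam1, Tie1, Icam2 and Erg, were lower in TM and 0 were higher (limma), against 9.7% of all genes lower, and none of these 4 calls held without any 1 library. At sites shared by the libraries of a mouse 4 of 7 were called lower and 0 higher, Tie1 (-0.71), Pecam1 (-0.65), Kdr (-0.41) and Tek (-0.36), against 29.8% of all genes lower (limma). The pan-leukocyte marker Ptprc had no listed site in any library, and the sum of the 10 leukocyte markers was 36.8 in CON and 20.9 in TM of EC1 and 28.6 and 35.0 in EC2. Markers of fibroblasts, pericytes and smooth muscle summed to 578 in EC1 CON and 906 in EC2 CON and to 205 and 319 in TM, with Dcn, a matrix proteoglycan, the most abundant in CON. Of these 10 markers only Tagln could be tested at own sites, and it was called lower (log2 difference -0.79, limma, Benjamini-Hochberg adjusted p = 0.042), against 9.7% of all genes lower. In gene counts Tagln was at -0.12 and not called (edgeR). Epithelial markers summed to 31.9 to 45.6, led by Krt18. The part of these cells in the transporter values was not tested.

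The transporters were read in 2 ways, as gene counts and as read depth over exons. Gene counts were sparse: of the totals over all rows of the count tables, 131796753 to 207323870 per library, only 0.823% to 0.858% fell on genes. Genes that share an exon with a gene on the opposite strand were 24.1% of those matched to the annotation but held 73.9% to 78.9% of the counts. The study kept the default settings of its tools, under which HTSeq counts a read pair only where its first mate lies on the strand of the gene, while the library kit is known to give first mates complementary to the RNA. A gene count may therefore hold reads from the strand opposite to the gene, and is printed below with this limit. Exonic depth is the number of reads covering a site, given here per 100000000 of a library's total over all rows, and a library lists a site only where it has a read with an altered base. The planned fit for depth used sites that both libraries of a mouse list, at least 3 in each mouse, and reached only 1 transporter, Slc38a2, which was not called. A further fit took the median depth over the exonic sites that each library lists itself, at least 3 in every library, and reached 7. It was added after the few shared sites and the depths of the transporters had been seen, and its sites differ between the libraries of a mouse. Unless stated otherwise, exonic depth below is this median.

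**Figure D1:**
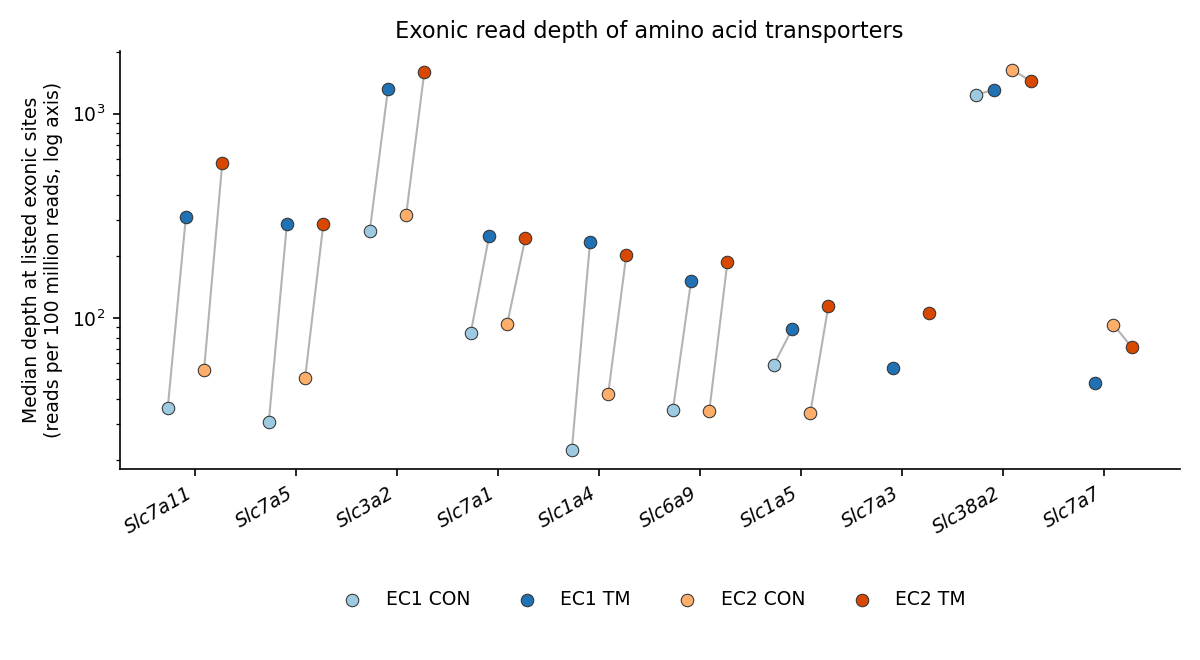
Median read depth at listed exonic sites (reads per 100000000, log axis) for each transporter, 1 point per library and a line joining CON and TM of a mouse. Slc7a11, Slc7a5, Slc3a2, Slc7a1, Slc1a4, Slc6a9 and Slc1a5 have both TM points above both CON points, Slc38a2 has overlapping groups, and a library that lists no site has no point. The EC2 CON point of Slc1a5 rests on 1 site, and the share of all genes with such an order was not counted.

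Among the heteromeric transporters, Slc7a11 (ENSMUSG00000027737, GRCm38 chr3:49892526-50443614, minus strand) had the largest mean log2 difference in depth of the 7 tested, although in EC1 the folds of Slc1a4 (10.4) and Slc7a5 (9.40) were above its 8.66. Its depth was 36.1 (13 sites) in CON and 312 (62 sites) in TM of EC1, and 55.7 (17 sites) in CON and 573 (143 sites) in TM of EC2, a mean of 45.9 ± 13.9 in CON and 443 ± 184 in TM (SD, n = 2). Both TM cultures lay far above both CON cultures, and the log2 difference was 3.24 ± 0.17 (SE, limma, Benjamini-Hochberg adjusted p = 0.00016). Slc7a11 had no exonic site listed in both libraries of EC1, and at its 5 shared sites in EC2 the log2 ratio was 3.52. With 3′ UTR sites alone the log2 difference was 3.13 (limma, Benjamini-Hochberg adjusted p = 0.018).

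Slc7a5 (chr8:121881150-121907694) and Slc3a2 (chr19:8706882-8723369), the light and heavy chain of the leucine exchanger, were both higher in TM. Slc7a5 depth was 30.8 (3 sites) in CON and 289 (22 sites) in TM of EC1, and 50.9 (8 sites) in CON and 287 (34 sites) in TM of EC2, with a log2 difference of 2.86 ± 0.23 (SE, limma, Benjamini-Hochberg adjusted p = 0.00099). The TM cultures were nearly alike, and the fold was 9.40 in EC1 and 5.63 in EC2, where CON was higher. Slc3a2, the heavy chain that also partners SLC7A11 and SLC7A7, had 267 (14 sites) in CON and 1316 (39 sites) in TM of EC1, and 319 (17 sites) in CON and 1602 (66 sites) in TM of EC2, or 293 ± 36.7 in CON and 1459 ± 203 in TM (SD, n = 2). Its log2 difference, 2.31 ± 0.13 (SE, limma, Benjamini-Hochberg adjusted p = 0.00025), was nearly equal in the 2 mice, at 2.30 and 2.33. In each library Slc3a2 depth, a value per base, was above that of Slc7a11 and Slc7a5.

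Slc7a7 (chr14:54369442-54417780), a light chain that exchanges cationic for neutral amino acids, could not be tested for depth. Depth was 47.8 in EC1 TM (2 sites), 92.7 in EC2 CON (4 sites) and 71.9 in EC2 TM (7 sites), and EC1 CON listed no exonic site. In EC2, the mouse with both values, it was therefore 0.776 times as high in TM as in CON.

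Of the cationic amino acid transporters, which bring in arginine and lysine, Slc7a1 (chr5:148327410-148399904) was higher in TM. Its depth was 84.5 (22 sites) in CON and 250 (41 sites) in TM of EC1, and 93.4 (27 sites) in CON and 246 (49 sites) in TM of EC2, a log2 difference of 1.48 ± 0.16 (SE, limma, Benjamini-Hochberg adjusted p = 0.0034). Replicates of a group were close, and at 2.96-fold in EC1 and 2.63-fold in EC2 the difference was the smallest of those called. Slc7a3 (chrX:101079210-101086020) had no listed exonic site in either CON culture, 4 sites in EC1 TM with a depth of 56.5 and 7 in EC2 TM with 105. No fold is given for it, since an unlisted gene may still have been covered by reads without an altered base.

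The neutral amino acid transporters Slc1a4 (chr11:20302180-20332713), which carries alanine, serine and cysteine, and Slc1a5 (chr7:16781340-16798274), which carries glutamine, were both at low depth in CON. Slc1a4 had 22.5 (5 sites) in CON and 235 (14 sites) in TM of EC1, and 42.5 (6 sites) in CON and 204 (28 sites) in TM of EC2. Its groups did not overlap, and the log2 difference was 2.82 ± 0.29 (SE, limma, Benjamini-Hochberg adjusted p = 0.0026), with 3.38 in EC1 and 2.26 in EC2. Slc1a5 had 59.0 in EC1 CON and 88.0 in EC1 TM (4 sites each), and 34.1 in EC2 CON (1 site) and 115 in EC2 TM (7 sites). Both TM values were above both CON values, but the single site of EC2 CON left Slc1a5 out of the test.

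The sodium-coupled transporters differed from each other. Slc38a2 (chr15:96687392-96699730), which takes up glutamine and other small neutral amino acids and is a known ATF4 target, was the only one of the 7 tested that was not called. Its depth was 1237 (86 sites) in CON and 1311 (101 sites) in TM of EC1, and 1641 (98 sites) in CON and 1445 (117 sites) in TM of EC2. The groups overlapped, with a log2 difference of -0.05 and a 95% interval of -0.40 to 0.30 (limma, Benjamini-Hochberg adjusted p = 0.83). At the sites listed in both libraries, 9 in EC1 and 15 in EC2, it was 0.04 with an interval of -0.19 to 0.27 (limma, Benjamini-Hochberg adjusted p = 0.82). In CON, Slc38a2 was the deepest of the 10 transporters, and in TM its depth was near that of Slc3a2. Slc6a9 (chr4:117834506-117875198), the glycine transporter, had 35.3 in EC1 CON and 34.8 in EC2 CON (3 sites each), 151 in EC1 TM (9 sites) and 187 in EC2 TM (18 sites). The CON cultures were alike and both TM cultures higher, with a log2 difference of 2.26 ± 0.20 (SE, limma, Benjamini-Hochberg adjusted p = 0.0014).

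In total, 6 of the 7 transporters tested at own sites were higher in TM and 0 were lower, at an adjusted and at an unadjusted p of 0.05, with a median log2 difference of 2.31. Over all 6836 genes tested, 9.7% were called higher and 9.7% lower, and the median was 0.01. Since the transporters had been chosen with earlier results of these data known, the distance from this share is not a test of them. All 6 were called without each library in turn and without the replicate block. Of the 1506 genes in the planned fit at shared sites, 22.6% were called higher and 29.8% lower, and Slc38a2, the only one of the 10 transporters among them, was neither (0 also at an unadjusted p). The median of all genes there was 0.00 in EC1 and -0.11 in EC2. When 1 shared site in each mouse was enough, 3 more could be tested, Slc3a2, Slc7a1 and Slc7a5, with log2 differences of 2.16, 1.29 and 2.58 (limma, called), against 19.7% of 4211 genes called higher. These rest on 1 shared site in EC1 for Slc3a2 and Slc7a1 and on 2 in each mouse for Slc7a5.

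Gene counts gave a different picture for some of the same genes. Of 7899 genes tested by edgeR, 4.39% were called higher and 3.35% lower, and in DESeq2 2.43% and 1.33% of 9719. Slc1a4 counts were 4 in CON and 25 in TM of EC1, and 4 in CON and 30 in TM of EC2, a log2 fold change of 2.42 ± 0.63 (SE, edgeR, Benjamini-Hochberg adjusted p = 0.0129). Slc3a2 counts were 34 in CON and 76 in TM of EC1, and 31 and 133 in EC2, a log2 fold change of 1.30 ± 0.36 (SE, edgeR, Benjamini-Hochberg adjusted p = 0.0187). These 2 of the 9 transporters tested were called higher and 0 lower, and at an unadjusted p 3 were higher and 0 lower. Their median log2 fold change was 0.83, and that of all genes 0.00. Both calls were lost in DESeq2, which called 0 transporters in either direction (3 higher and 0 lower at an unadjusted p). The share of all genes at an unadjusted p was not counted, here or for the other lists. The call for Slc1a4 was lost without any 1 of the 4 libraries, and that for Slc3a2 without EC1 CON, EC2 CON or EC2 TM.

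Slc7a1 counts were 9 in CON and 30 in TM of EC1 and 15 and 56 in EC2, and its log2 fold change of 1.45 missed the threshold (edgeR, Benjamini-Hochberg adjusted p = 0.057) but passed it with the mouse as a replicate block (adjusted p = 0.0191). DESeq2 did not call Slc7a1 (Benjamini-Hochberg adjusted p = 0.42), and with the block it gave no adjusted p (unadjusted p = 0.0732). For these 3 genes counts and depth had the same sign. Slc7a5 counts, in the same order, were 11, 25, 15 and 34 (log2 fold change 0.83, edgeR, Benjamini-Hochberg adjusted p = 0.37), Slc1a5 counts 16, 23, 6 and 28 (0.87, adjusted p = 0.40) and Slc38a2 counts 133, 166, 127 and 284 (0.41, adjusted p = 0.48). None of the 3 was called, and of Slc7a3 only 2 counts were seen, both in EC2 TM, so that edgeR with its filter did not test it, edgeR without the filter did not call it, and DESeq2 gave no adjusted p. A count of 0 allows up to 3 counts, or a CPM of 1.69 to 2.74, and covers counting error only.

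Slc7a11 and Slc6a9 had opposite signs in the 2 readouts, as did Slc38a2 (0.41 by counts and -0.05 by depth, called in neither). Slc7a11 counts were 508 in CON and 328 in TM of EC1, and 684 in CON and 763 in TM of EC2, with a log2 fold change of -0.55 ± 0.29 (SE, edgeR, Benjamini-Hochberg adjusted p = 0.29). With the mouse as a replicate block Slc7a11 was called lower (log2 fold change -0.56, edgeR, adjusted p = 0.0243), the 1 transporter among 7.39% of genes called lower in that fit, while 7.6% were higher and 3 transporters, Slc1a4, Slc3a2 and Slc7a1, were among those. DESeq2 with the same block did not call Slc7a11 (Benjamini-Hochberg adjusted p = 0.11). Its gene span holds 3 genes on the opposite strand, Gm2345, Gm37826 and Gm37854, that share no exon with it. Slc6a9 counts were 183 and 145 in EC1 and 153 and 178 in EC2 (log2 fold change -0.38, edgeR, Benjamini-Hochberg adjusted p = 0.54), and Slc7a7 counts 60 and 71 in EC1 and 58 and 112 in EC2, each CON before TM (0.27, adjusted p = 0.73).

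Slc1a5 and Slc6a9 lie on the plus strand and the other transporters on the minus strand. Slc6a9 and Slc7a7 are the 2 that share exons with genes on the opposite strand, Slc6a9 with B4galt2, Ccdc24 and Gm17114 and Slc7a7 with Oxa1l. Counts of Ccdc24, looked up after the values of Slc6a9 had been seen, were 57 in CON and 315 in TM of EC1, and 62 in CON and 471 in TM of EC2, a log2 fold change of 2.36 (edgeR, Benjamini-Hochberg adjusted p = 3.26e-06) beside the 2.26 of Slc6a9 depth. B4galt2 was at 0.86 by counts (edgeR, Benjamini-Hochberg adjusted p = 0.26) and was called lower by depth, at -0.77 (limma, Benjamini-Hochberg adjusted p = 0.0397), and Oxa1l was at -0.66 by counts and -0.19 by depth, neither called. Chrnb2, which overlaps Adar in the same way, had counts of 70 in CON and 447 in TM of EC1 and 76 and 563 in EC2. The part of the counted strand in the difference between the readouts was not tested.

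**Figure D2:**
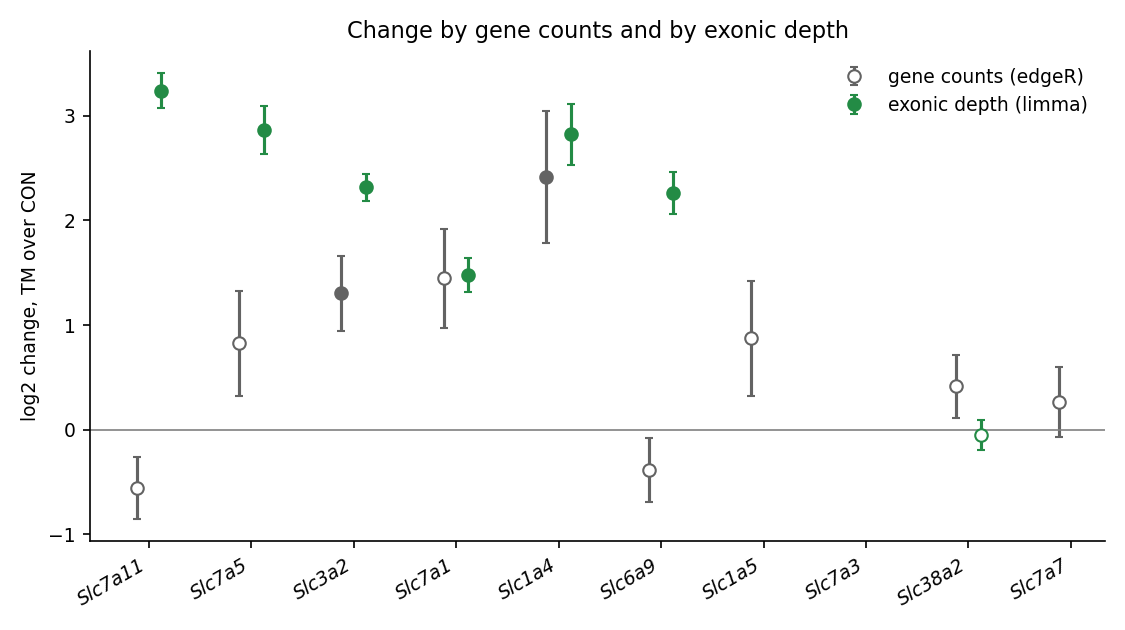
Log2 change from CON to TM of each transporter by gene counts (grey, edgeR) and by exonic depth at own sites (green, limma), with bars of 1 SE and filled points for an adjusted p of at most 0.05. Slc7a11 is at -0.55 by counts and 3.24 by depth, Slc6a9 at -0.38 and 2.26, and a missing point means that the gene was not tested.

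Genes around the transporters were read from lists in the same own-site fit. These lists too had been chosen with earlier results of these data known, so the shares of all genes beside them are no test. Of the ATF4 pathway, 14 of 19 genes were tested, 10 were higher and 0 lower at an adjusted and at an unadjusted p, against 9.7% of all genes in either direction, and the median log2 difference was 1.04. Atf4 depth was 415 in CON and 1464 in TM of EC1, and 481 in CON and 1709 in TM of EC2, a log2 difference of 1.82 (limma, Benjamini-Hochberg adjusted p = 0.00069), and at shared sites, where 2 genes of the list were tested, it was also called higher, by 1.74. Nupr1, Trib3, Asns, the asparagine synthetase, and Ppp1r15a, a subunit of the phosphatase of eIF2α, were the other 4 with the lowest adjusted p, with log2 differences of 2.85, 2.47, 2.74 and 2.18. The kinase PKR, Eif2ak2, which is also an interferon-stimulated gene, was higher by 1.61 on the log2 scale, and the kinases Eif2ak4 (-0.05) and Eif2ak1 (0.08) were not called. The remaining kinase of eIF2α, PERK (Eif2ak3), could not be tested, with 55.2 in EC1 CON, 71.8 in EC2 CON, 25.1 in EC2 TM and no listed site in EC1 TM, so that in EC2 it was 0.35 times as high in TM. The kinases were named after their values had been seen. In gene counts 7 of 16 were called higher and 0 lower (edgeR, 11 and 0 at an unadjusted p), against 4.39% and 3.35% of all genes, and 10 and 0 in the fit with the replicate block, against 7.6% and 7.39%. Of the 7, the 5 with the lowest adjusted p were Ddit3, Trib3, Chac1, Atf3 and Nupr1. DESeq2 called 4 and 0, against 2.43% and 1.33% of all genes. With no replicate block the own-site fit called 7 genes of the list higher and 0 lower, where 809 genes were called in all. The own-site calls of Atf4, Nupr1, Trib3, Asns, Ppp1r15a and Eif2ak2 all held without each library, and the list's other own-site calls were lost without either TM library. The count call of Ddit3 also held without each library, while Atf3, Chac1 and Nupr1 were lost in counts without at least 1.

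Of 38 other amino acid transporters, 8 were tested at own sites, 1 was higher and 3 lower, against 9.7% of all genes in either direction, with a median log2 difference of -0.51. Slc7a2, a further cationic transporter, was higher by 1.87 on the log2 scale (limma, Benjamini-Hochberg adjusted p = 0.0245) at depths of only 2.79 to 12.1. Slc43a2, a uniporter of large neutral amino acids, had 171 in CON and 83.5 in TM of EC1, and 178 in CON and 83.0 in TM of EC2, and its log2 difference was -1.07 (limma, Benjamini-Hochberg adjusted p = 0.0103). The taurine transporter Slc6a6 and Slc38a10 were also lower, with log2 differences of -0.99 and -0.58. At shared sites, where 22.6% of genes were higher and 29.8% lower, 4 of the 38 were tested, and Slc7a2 (2.07) was called higher and Slc6a6 (-1.02) and Slc38a10 (-0.54) lower. At own sites the call of Slc38a10 was lost without any 1 library, those of Slc43a2 and Slc6a6 without either TM library, and that of Slc7a2 without EC1 TM, EC2 CON or EC2 TM. In gene counts 9 were tested and 0 called by edgeR in either direction (0 higher and 2 lower at an unadjusted p), and 0 by DESeq2 (0 at an unadjusted p), where 4.39% and 3.35% of all genes were called by edgeR and 2.43% and 1.33% by DESeq2.

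Genes of cystine and glutathione metabolism, which use what SLC7A11 brings in, were 12 tested of 19, with 0 higher (4 at an unadjusted p) and 1 lower, against 9.7% of all genes in either direction, and a median log2 difference of 0.23. Nfe2l2, which encodes NRF2, had a depth of 431 in CON and 413 in TM of EC1 and of 552 and 450 in EC2, and its log2 difference of -0.18 was not called (limma, Benjamini-Hochberg adjusted p = 0.41). Nqo1 was lower, with a log2 difference of -0.87 (limma, Benjamini-Hochberg adjusted p = 0.0149). The glutathione synthesis genes Gclc and Gclm were at 0.59 and 0.65 without passing (adjusted p = 0.051 and 0.062). Txnrd1 (0.39), Srxn1 (0.32) and Hmox1 (0.14) were not called either, and they, Gclc and Gclm were named after their values had been seen. The call of Nqo1 was lost without EC1 TM, EC2 CON or EC2 TM and with no replicate block. In gene counts (edgeR, 13 tested, against 4.39% of all genes called higher and 3.35% lower) Chac1, a glutathione-degrading enzyme that is also on the ATF4 list, was higher, and Aifm2 lower, but Chac1 was not called or not tested without any 1 library and Aifm2 not called in DESeq2 or without EC1 TM or EC2 CON.

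Of the genes through which mTORC1 senses amino acids, 17 of 26 were tested, with 1 higher and 1 lower, a share below the 9.7% of all genes in either direction, and a median log2 difference of 0.09. Sesn2, a leucine sensor that is also on the ATF4 list, was higher by 0.60 on the log2 scale (limma, Benjamini-Hochberg adjusted p = 0.047), a call that was lost with no replicate block and without any 1 library. Gatsl2, of the arginine sensor family CASTOR, was lower, at -1.79 (adjusted p = 0.0153), and in gene counts, where 12 were tested, Tsc2 was called lower and 0 genes higher (edgeR, 2 at an unadjusted p), against 3.35% and 4.39% of all genes. By depth Tsc2 was at 0.03 (limma, Benjamini-Hochberg adjusted p = 0.93), and its count call was lost without either TM library, as that of Gatsl2 in depth was without EC1 TM.

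**Figure D3:**
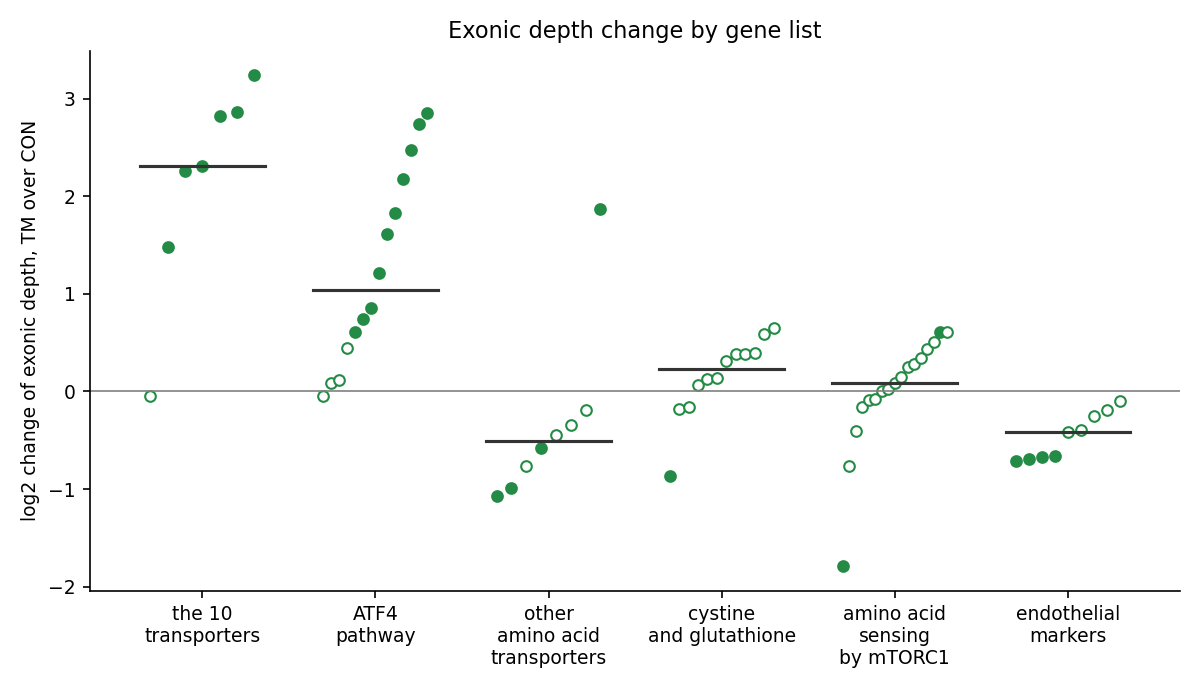
Log2 difference of exonic depth at own sites, TM over CON, 1 point per tested gene in each list, with a bar at the list median and filled points for an adjusted p of at most 0.05 (limma). The 10 transporters (7 tested) have a median of 2.31 and the ATF4 pathway 1.04, while the medians of the other lists shown, with endothelial markers at -0.42, lie between -0.51 and 0.23.

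Editing was then read at the sites of the transporters, since ADAR1 converts adenosine to inosine, which is read as G. Most of their listed sites held a single altered read, 80.2% to 86.3% in each library. Sites passed with 5 or more reads, of which 3 or more were altered, and a rate between 0.05 and 0.95. In some library 37 did, 28 of them in Slc7a5, 8 in Slc7a7 and 1 in Slc3a2, and the other 7 genes had none. Only 4 of the 37 lay in SINEs and 2 in LTRs, while 31 were outside repeats. The passing sites numbered 6 in CON and 28 in TM of EC1 and 5 each in EC2, and a further 5 in EC2 CON and 32 in EC2 TM passed except for a rate above 0.95. Of the sites with reads, those that passed were 2.21% in CON and 5.77% in TM of EC1, against 3.15% and 2.61% over all genes, and 1.68% in CON and 0.714% in TM of EC2, against 3.003% and 2.84%.

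The mean editing rate over passing sites, counting 0 where a library lists no site, was 0.398 in CON and 0.540 in TM over 29 sites of EC1, and 0.362 in CON and 0.312 in TM over 8 sites of EC2. The difference was 0.141 in EC1 and -0.0503 in EC2, with opposite signs but over different sites. Those of EC1 were the 28 of Slc7a5 and 1 of Slc7a7, and those of EC2 were other sites of Slc7a7 and 1 of Slc3a2. The 2 means therefore do not compare the mice at the same sites. The sign in EC1 rested on unlisted sites counted as 0: over sites that both libraries of a mouse list, 17 in EC1 and 5 in EC2, the difference was -0.0996 and -0.132. Weighted by reads it was -0.0333 and -0.102. Listing needs an altered read, which raises the rate of shallow CON sites, as at chr8:121900084 with 1 of 1 read altered in EC1 CON and 13 of 19 in EC1 TM. The sign over listed sites is therefore partly set by the listing, and no direction is read from it. Fisher's exact test, two-sided, on the reads of each site could be made at 6 sites in EC1 and 4 in EC2 and called 0 of them, with a lowest Benjamini-Hochberg adjusted p of 0.949 and 0.662 (0 of either at an unadjusted p). Of all sites tested, 0.959% of 9800 were called in EC1 and 2.46% of 10402 in EC2.

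Slc7a5 held most of the passing sites, and at the sites that a library lists its rates differed between the mice. Over those of its 28 sites that a library lists, altered reads were 86 of 158 in EC1 CON (54.4%, 95% Wilson interval 46.7% to 62.0%). In EC1 TM they were 529 of 1052 (50.3%, 47.3% to 53.3%). In EC2 they were 175 of 175 in CON (100%, 97.9% to 100%) and 1455 of 1455 in TM (100%, 99.7% to 100%). All 28 passed in EC1 TM, where the gene was deep, 5 of them also in EC1 CON and 0 in EC2. A rate of at most 0.95 and 3 or more altered reads in EC1 TM were thus set by the choice. Reads that cover several sites are counted more than once in these sums, and the intervals cover counting error only. At the listed sites every read of EC2 was altered, and about as many reads of EC1 were altered as not. EC1 CON listed 17 of the 28 sites and EC2 CON 22, while each TM library listed all 28. A site read once is listed only if that read is altered, and unaltered reads at unlisted sites are not seen. The CON shares are therefore partly set by the listing, and a change from CON to TM was not tested with these sums. The 28 sites replaced a wider set of 33, without limits on the rate, after its values had been seen. In that set 1 site of EC2 TM had 3 altered of 965 reads, which brought the pooled value of EC2 TM to 1498 of 2460 (60.9%), and the other libraries were at 55.5% (EC1 CON), 50.2% (EC1 TM) and 100% (EC2 CON). Whether the altered base at these sites is in the genome of the mice was not tested.

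**Figure D4:**
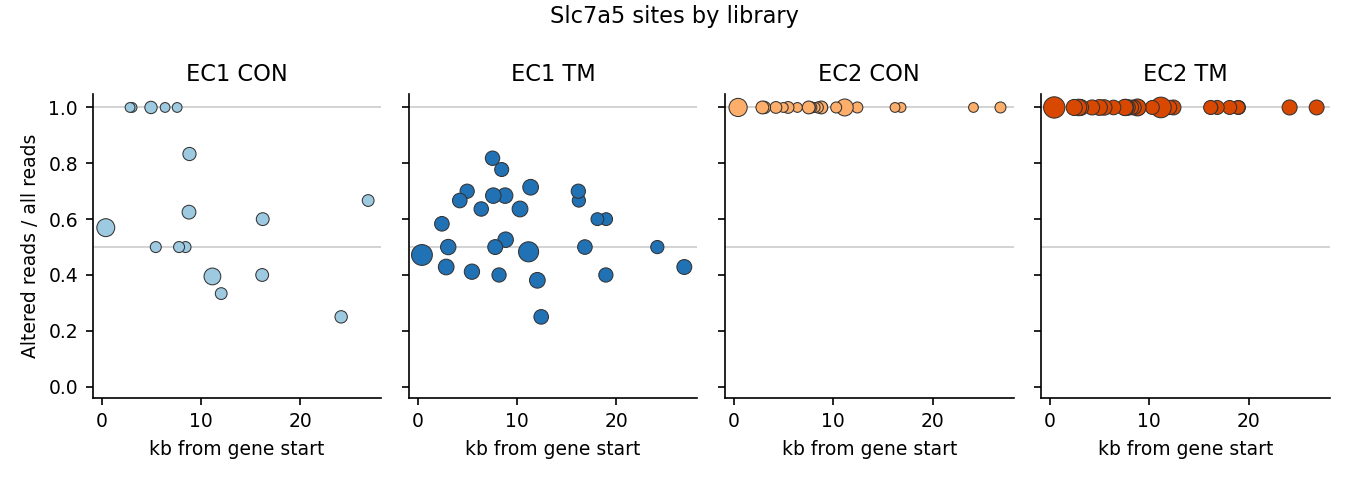
Fraction of altered reads at those of the 28 passing sites of Slc7a5 that a library lists, against distance from the gene start (kb), 1 panel per library, with larger points for deeper sites and lines at 0.5 and 1. All points of EC2 CON and EC2 TM are at 1, and those of EC1 TM lie between 0.25 and 0.82, with a wider spread in EC1 CON, where the sites are shallower.

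The 3 coding sites among the 37 passing ones are shown because a base change there could alter the protein, as 29 bases of GRCm38 around the site on the minus strand, 5′ to 3′, with the site in capitals.
Slc7a5 exon 1, chr8:121907251-121907279: accatctccaagtcAggcggcgactacgc
Slc7a5 exon 2, chr8:121896520-121896548: aactgctacagcgtAaaggctgcgacccg
Slc7a7 exon 5, chr14:54374624-54374652: ggcatttccatgccAatcgtcaccatcat
Each is the last base of its codon, and G there leaves the amino acid as it is. At the Slc7a5 exon 1 site 41 of 72 reads were altered in EC1 CON, 208 of 441 in EC1 TM, 85 of 85 in EC2 CON and 616 of 616 in EC2 TM. At the exon 2 site the altered reads were 15 of 38, 128 of 265, 42 of 42 and 390 of 390 in the same order, so the total reads at both sites were higher in TM, like the depth of the gene, while the altered share of each mouse stayed near its CON value. The Slc7a7 site was not listed in EC1, and in EC2 it had 66 of 126 altered reads in CON and 63 of 150 in TM (Fisher's exact test, Benjamini-Hochberg adjusted p = 0.67).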

How the data were processed

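RNA was depleted of ribosomal RNA and made into libraries with the KAPA RNA HyperPrep kit. Per the labels, the authors used Trimmomatic 0.38, STAR 2.6.1a and HTSeq 0.11.2 on mm10, and deposited raw gene counts, from which the summary rows for reads on no gene (92.8% to 93.9% of a library's total) were left out. They called variants with BCFtools and deposited, for each site, the read counts of the bases and a fraction of altered reads (the editing rate), which is 0 where a library lists no site. Site columns were given to libraries through the study's table of sites, where all 1998 sites held had equal values.

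The transporters and all lists were chosen with earlier results of these data known. Every transporter is named. Of other lists the called genes are named, at most 5 per direction by adjusted p, or else the 2 deepest, with Atf4, Nfe2l2, Adar and markers. Outside this rule, Eif2ak1 to Eif2ak4, Gclc, Gclm, Txnrd1, Srxn1, Hmox1 and the genes overlapping a transporter or Adar were chosen after their values were seen. One list gene matched no symbol.

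Counts were tested with edgeR 4.0.16 (filterByExpr, TMM, condition only; DESeq2 1.42.0 as an alternative), and depth with limma 3.58.1 on log2 values, within mice and scaled by the total of all rows, both at a Benjamini-Hochberg adjusted p of 0.05 over all genes tested. The planned depth fit used sites listed in both libraries, and the fit at own sites was added after the transporters' depths had been seen. Gene positions are from GENCODE vM21. CON and TM come from the same mouse, and deviations of a mouse's libraries correlated with r = 0.163 over 7899 genes. Both fits were tested on simulated data. R 4.3.3 and Python 3.11.15 were used.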

Additional observations from a re-analysis of the deposited data

How the results depend on the processing

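The 6 calls at own sites kept their direction and their side of the threshold in each alternative that could test them. Leaving out 1 library meant dropping the block and assuming that a lone library varies like the others. Depth at listed sites says nothing of a gene that a library does not list, and 16 or fewer counts in each CON library limit Slc7a5, Slc7a1, Slc7a3, Slc1a4 and Slc1a5. Genes called in counts numbered 612, and 365 with DESeq2, 399 without the TMM factor, 1184 with the mouse as a replicate block, and 436 to 574 without 1 library. At shared sites 790 genes were called, 1793 with at least 1 shared site, 120 with at least 10, 1283 with introns and 157 with no replicate block, and at own sites 1326, 146 with 3′ UTR sites, 809 with no replicate block and 371 to 912 without 1 library. The log2 difference of Slc38a2 at own sites, -0.05, ranged from -0.25 to 0.15 without 1 library, changing sign without EC1 TM (0.020) or EC2 CON (0.15), and was, at shared sites, 0.091 with the median of all genes set to 0, 0.034 by the median of site ratios, 0.037 with at least 1 site and 0.038 with introns, and was called in none. The mean editing difference of EC1, 0.141, was -0.0996 over sites listed in both libraries and -0.0333 weighted by reads. That of EC2, -0.0503, was -0.132 over sites listed in both, -0.102 weighted by reads, -0.104 at a depth of 20, 0.00345 at a depth of 10 and 0.0742 with 5 altered reads, so that its sign depends on the sites taken.

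Transporters called higher in counts went from 2 to 0 with DESeq2 and to between 0 and 1 without 1 library, and those called lower from 0 to 1 with the replicate block. ATF4 genes called higher in counts went from 7 to 10 with the replicate block, to 4 with DESeq2 and to between 3 and 8 without 1 library, and in depth from 10 to between 6 and 9. Other transporters in depth went from 1 higher to between 0 and 1 and from 3 lower to between 0 and 2 without 1 library. For cystine and glutathione, the 1 gene higher in counts went to 0 without any 1 library, the 1 lower to 0 with DESeq2 and 0 to 1 without 1 library, and the 1 lower in depth to 0 with no replicate block and 0 to 1 without 1 library. For mTORC1 sensing, genes higher in counts went from 0 to between 0 and 1 without 1 library, the 1 higher in depth to 0 with no replicate block and 0 without any 1 library, and those lower, 1 in counts and 1 in depth, to between 0 and 1 without 1 library. The causes were not tested.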

Other observations

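Sites of other genes around Slc7a5 were looked up after its rates had been seen. Within 200 kb of the gene, 16 sites in 4 other genes had 10 or more reads in each TM library and 3 or more altered reads in one of them. Of these, 11 had a rate above 0.95 in EC2 TM, and 5 of the 11 a rate between 0.3 and 0.7 in EC1 TM. Within 1000 kb there were 37 such sites in 14 genes, of which 15 had a rate above 0.95 in EC2 TM and 8 of the 15 a rate between 0.3 and 0.7 in EC1 TM.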
